A study of Mus musculus with 6 samples.

Results

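The Tmem2 locus on mouse chromosome 19 was followed through 6 bisulfite sequencing libraries of colon epithelium. Its members were all regions of the deposited tables that overlap chr19:21845000-21940000 (build mm9), which gave 27 of the 209687 regions in each table. They held 3 to 26 CpGs each, 198 in all. The locus was chosen from measured values, because it holds the region with the largest fall in methylation in mice given azoxymethane and dextran sulfate sodium (AOM/DSS) relative to control mice. Differences between AOM/DSS and control are therefore given at these regions as a description, with no test.

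The groups were AOM/DSS plus curcumin, AOM/DSS alone and control, with 2 libraries each, numbered 0 and 1 by the submitters. All came from C57BL/6 mice, a common inbred strain, at 18 weeks of age. Azoxymethane is a colon carcinogen, dextran sulfate sodium inflames the colon, and curcumin is a polyphenol of turmeric. The labels state neither doses nor timing. Per the labels' protocol, the proximal colon and tumors of the right side were removed and the epithelium of the rest was scraped off, so the values describe a scraped cell mixture and not excised tumors. Nothing in the labels says whether the libraries of a group came from separate mice or from pools, and a p-value then speaks only of the spread among these 6 libraries. No expression was measured here, so the labelled cell type could not be checked by marker genes, and in a cell mixture a change of level within cells and a change in the share of a cell type cannot be told apart.

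Tmem2, listed as Cemip2 in the gene table (assembly GRCm38.p6), encodes a transmembrane protein related to the hyaluronan-binding protein Cemip. In mouse it has been reported to cut hyaluronan, a long sugar polymer of the extracellular matrix, at the cell surface. Hyaluronan and its fragments take part in tissue remodelling and inflammation, in the intestine as elsewhere. As general background, CpG-rich promoters of expressed genes are mostly unmethylated, gene bodies are mostly methylated, and short stretches of lower methylation inside genes often lie at regulatory elements. The neighbouring protein-coding genes in that table are Abhd17b before and Trpm3 after Tmem2.

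The gene interval used here, chr19:21852800-21932900 (mm9), is approximate and comes from the rule that defines the locus; Tmem2 runs from the lower to the higher coordinate. No mm9 annotation was used here, so regions are placed by distance from the gene start and not by exon or intron. The locus held 3 regions upstream, 3 within 1000 bases of the gene start, 19 in the gene body and 2 past the gene end. All 6 libraries had a value in 24 of the 27. The regions cover 5.05% of the gene interval, and no region lies between 21893376 and 21929956, a gap of 36580 bases.

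Depth was similar among libraries. Total methylation calls ran from 24682973 to 30727568 per library, and calls over the 27 members from 2458 to 2826. Over the 179922 regions with a value in all 6 libraries, the mean methylation level ran from 40.2% to 41.3%. The methylation level is the percentage of methylated calls among all calls of a region.

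In the control libraries the locus had the layout of a methylated gene with an unmethylated start. Of the 27 members, 16 averaged at least 80% in control, 3 lay between 40% and 80%, 7 lay under 40% and 1 had no control value. Of the 7 low members, 3 lay near the gene start, 3 in a patch of the gene body and 1 at the upstream edge of the window.

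**Figure D1:**
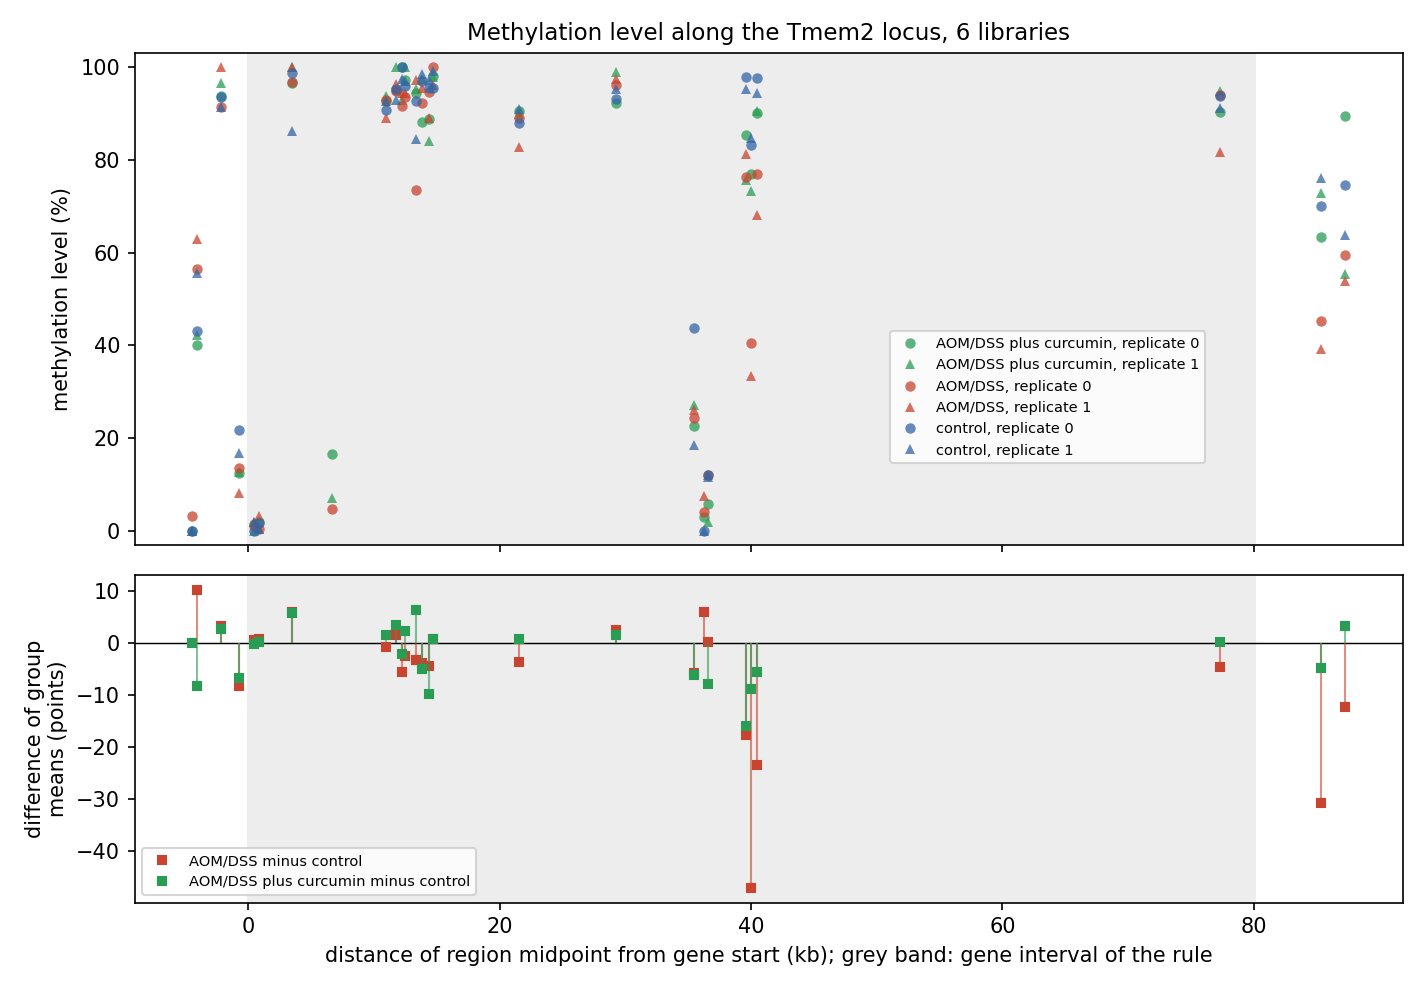
Methylation level of each member region (top, percent; circles replicate 0, triangles replicate 1) and difference of group means (bottom, percentage points) against distance from the gene start in kilobases. The gene start is near 0% in all groups, most gene-body regions are above 80%, and the lowest AOM/DSS value relative to control, -47.1 points, stands 39976 bases into the gene.

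The gene start itself was unmethylated in every group. The region from 21853127 to 21853453, with 26 CpGs the most CpG-rich of the locus, had 1.51% and 0% in AOM/DSS plus curcumin, 0.990% and 1.94% in AOM/DSS, and 0% and 1.90% in control. The 2 libraries at 0% had 163 calls with curcumin and 179 calls in control, which allow levels of up to 1.84% and 1.68%. The groups overlapped. The next region, from 21853461 to 21853788 with 14 CpGs, had 1.87% and 0.405% in AOM/DSS plus curcumin, 0.372% and 3.12% in AOM/DSS, and 1.67% and 0.364% in control, again with overlap.

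On the upstream side of the gene start the level was low but not 0. The region from 21851924 to 21852248, with 13 CpGs and 119 to 170 calls, had 12.4% and 12.6% in AOM/DSS plus curcumin, 13.6% and 8.24% in AOM/DSS, and 21.8% and 16.8% in control. Both treated groups lay below both controls here, with a difference from control of -6.79 points with curcumin and -8.38 points in AOM/DSS. In edgeR's quasi-likelihood test over all 179922 regions, curcumin against control did not pass at this region (adjusted p = 1, unadjusted p = 0.122). Over the 3 regions near the gene start the mean level was 4.80% ± 0.657 with curcumin, 4.71% ± 0.393 in AOM/DSS alone and 7.09% ± 1.05 in control (SD, n = 2 each). For curcumin against control the exact permutation test gave a two-sided p of 0.333, the smallest that 2 against 2 libraries allow.

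The region with the largest difference between AOM/DSS and control, called the core region here, lies inside the gene at chr19:21892566-21892986 (mm9) and holds 12 CpGs. In AOM/DSS plus curcumin, 174 of 226 calls (77.0%) and 165 of 225 calls (73.3%) were methylated. In AOM/DSS, 118 of 292 calls (40.4%) and 106 of 318 calls (33.3%) were methylated. In control, 214 of 257 calls (83.3%) and 199 of 235 calls (84.7%) were methylated. The AOM/DSS libraries stood far below all 4 others, and no 2 groups overlapped.

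Wilson 95% intervals for these levels ran from 71.1% to 82.0% and from 67.2% to 78.7% in AOM/DSS plus curcumin. They ran from 34.9% to 46.1% and from 28.4% to 38.7% in AOM/DSS, and from 78.2% to 87.3% and from 79.5% to 88.7% in control. They cover counting error only, and calls on the same read are not independent, so they are too narrow. The group means were 75.2% ± 2.59 with curcumin, 36.9% ± 5.005 in AOM/DSS alone and 84.0% ± 0.999 in control (SD, n = 2 each). AOM/DSS minus control was -47.1 points, the lowest of all 179922 regions.

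**Figure D2:**
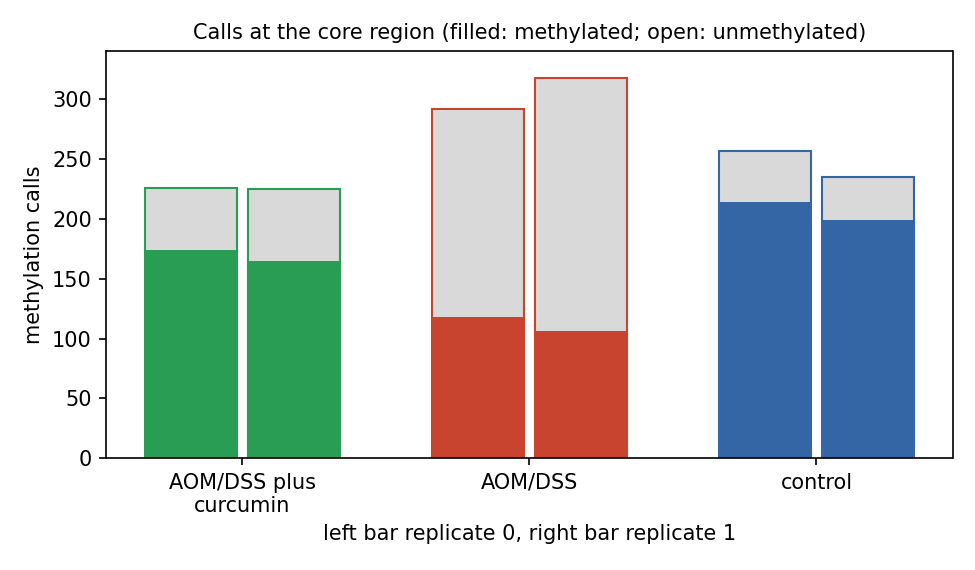
Methylated (coloured) and unmethylated (light grey) calls at the core region in each library, as numbers of calls. The 2 AOM/DSS libraries have the most calls, 292 and 318, and the fewest methylated ones, 118 and 106.

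Read depth, which took no part in choosing the locus, was somewhat higher at the core region in AOM/DSS. Calls per CpG, divided by the median of the same library over all tested regions, were 1.31 and 1.36 in AOM/DSS plus curcumin, 1.49 and 1.74 in AOM/DSS, and 1.34 and 1.48 in control. AOM/DSS replicate 0 and control replicate 1 were close, and AOM/DSS replicate 1 stood above the other 5 libraries. The part of depth in the methylation difference was not tested.

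The regions on both sides of the core region were lower in AOM/DSS too. The region 115 bases before it, from 21892333 to 21892451 with 4 CpGs, had 85.4% and 75.7% in AOM/DSS plus curcumin, 76.4% and 81.2% in AOM/DSS, and 97.9% and 95.2% in control. Here the curcumin libraries overlapped with AOM/DSS, and both treated groups lay below both controls. The region 136 bases after the core, from 21893122 to 21893376 with 7 CpGs, had 90.1% and 90.5% in AOM/DSS plus curcumin, 76.9% and 68.0% in AOM/DSS, and 97.6% and 94.3% in control. Here the curcumin libraries lay between the groups, nearer to control. Depth was 37 to 55 calls per library before the core and 84 to 117 after it, and whether both sides differ in their curcumin level was not tested.

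Together the core region and its flanks span 1043 bases, from 21892333 to 21893376, with 23 CpGs. Their mean level was 82.0% ± 3.05 with curcumin, 62.7% ± 2.62 in AOM/DSS alone and 92.2% ± 1.06 in control (SD, n = 2 each). These 3 regions were grouped after their values had been seen. The next measured region before them ends 2910 bases away and the next one after them starts 36580 bases away, so the edges of the stretch are not resolved on either side.

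**Figure D3:**
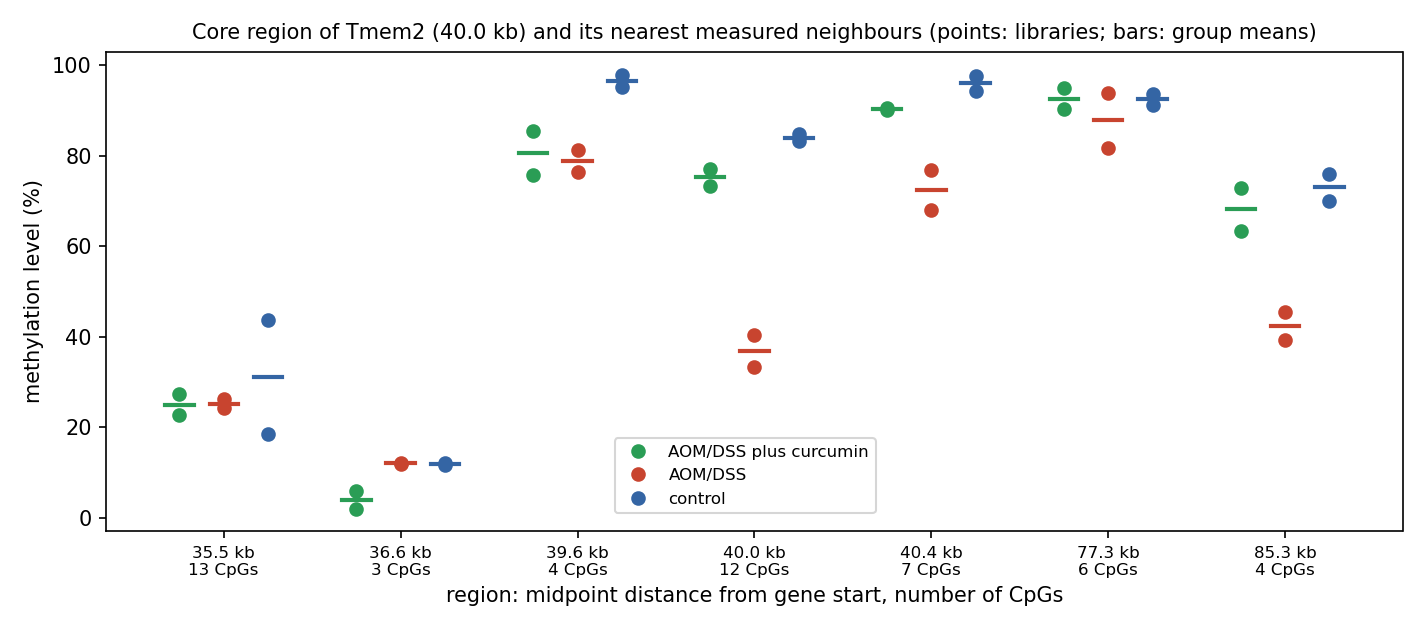
Methylation level (percent) at the core region and at the 3 nearest regions on each side with a value in all 6 libraries; points are libraries and bars are group means. At the core region both AOM/DSS libraries, at 40.4% and 33.3%, lie below all others. The same holds at the region after it and at the region past the gene end. The low regions before the core region show no such difference.

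Before that stretch the gene body holds a patch of low methylation. The region from 21888155 to 21888391, with 13 CpGs, had 22.6% and 27.2% in AOM/DSS plus curcumin, 24.3% and 26.1% in AOM/DSS, and 43.7% and 18.5% in control. The control libraries stood far apart there, and their range held all 4 treated libraries. The region from 21889377 to 21889423, with 3 CpGs, had 5.88% and 1.92% in AOM/DSS plus curcumin, 12.1% and 12.0% in AOM/DSS, and 12.1% and 11.7% in control. Curcumin was lower there on 52 to 92 calls per library, without passing against AOM/DSS (edgeR adjusted p = 0.940) or control (edgeR adjusted p = 1).

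Between both lies a region with an incomplete record, from 21889039 to 21889078 with 4 CpGs. It had 3.03% in curcumin replicate 0 and no value in curcumin replicate 1, 4.17% and 7.55% in AOM/DSS, and 0 methylated calls in both controls. The control counts of 54 and 23 calls allow levels of up to 5.56% and 13.0%. AOM/DSS replicate 1 lay above the limit of control replicate 0 and below that of control replicate 1, and the region was not tested, since 1 library had no value.

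Most of the other gene-body regions were methylated in all groups. Outside the stretch, 12 gene-body regions averaged at least 80% in control, from 21856263 up to 21930199. Their levels ran from 84.0% to 100% in AOM/DSS plus curcumin, from 73.5% to 100% in AOM/DSS and from 84.4% to 100% in control. AOM/DSS minus control ran from -5.65 to 5.93 points over these 12, 8 of them below 0, and none reached 10 points. AOM/DSS and control did not overlap at 5 of the 12, with differences in both directions. The share of all regions without overlap at any size was not counted, so nothing is read from this count. The region with the most CpGs among them, 18, lay from 21881910 to 21882244. It had 92.2% and 98.9% in AOM/DSS plus curcumin, 96.0% and 97.4% in AOM/DSS, and 93.0% and 95.3% in control. Both AOM/DSS libraries lay above both controls there, and the range of the curcumin libraries held both other groups. The libraries of AOM/DSS were farthest apart at a region of 3 CpGs from 21866079 to 21866172, at 73.5% and 97.3%, beside 94.4% and 95.3% with curcumin and 92.8% and 84.4% in control. The region nearest to the gene end, from 21929956 to 21930199 with 6 CpGs, belonged to them, with 90.2% and 94.9% in AOM/DSS plus curcumin, 93.9% and 81.7% in AOM/DSS, and 93.7% and 91.2% in control.

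Over all 17 gene-body regions with 6 values the mean was 82.9% ± 0.362 with curcumin, 78.6% ± 0.187 in AOM/DSS alone and 85.2% ± 1.79 in control (SD, n = 2 each). AOM/DSS minus control was -6.59 points over the 17 regions and -4.06 points without the core region. Without the core region and its flanks, 14 regions remained, with 83.1% ± 1.09 with curcumin, 82.0% ± 0.334 in AOM/DSS alone and 83.7% ± 1.95 in control, a difference of -1.69 points between AOM/DSS and control. A further gene-body member, from 21859432 to 21859551, had values in 3 libraries only, 16.7% and 7.14% with curcumin and 4.76% in AOM/DSS replicate 0, on 21 to 28 calls.

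**Figure D4:**
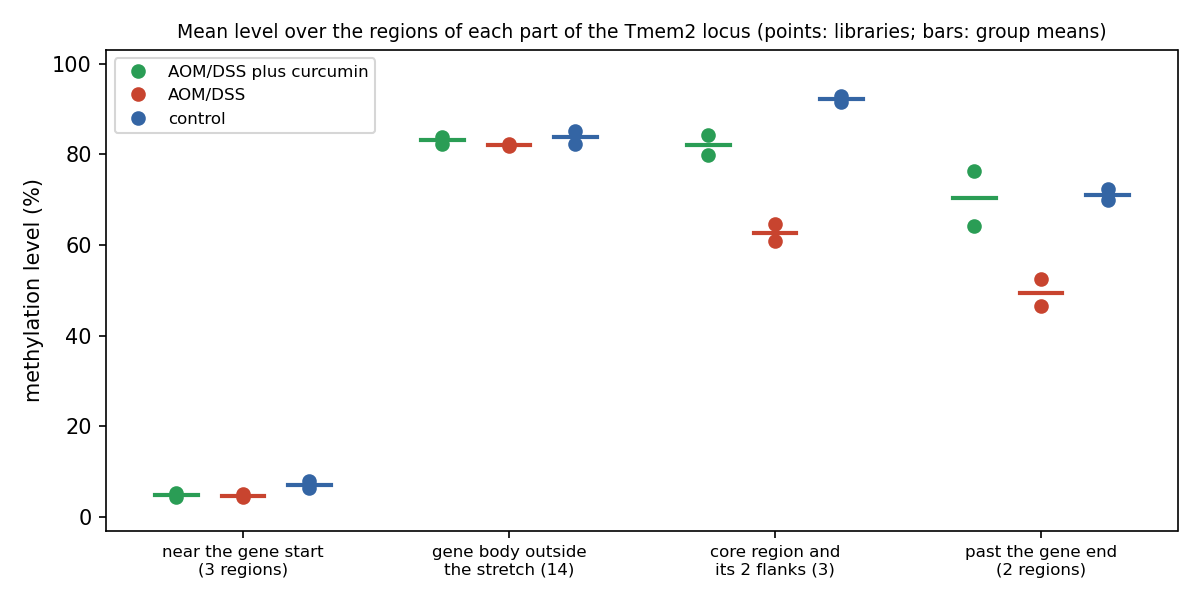
Mean methylation level (percent) over the regions near the gene start, in the gene body outside the stretch, in the core region with its flanks, and past the gene end; points are libraries and bars are group means. The group means lie within 2 points of each other in the gene body outside the stretch and are farthest apart in the stretch, at 82.0% with curcumin, 62.7% in AOM/DSS alone and 92.2% in control.

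A second region that was lower in AOM/DSS lay past the gene end. The region from 21938068 to 21938185, with 4 CpGs, starts 5168 bases after the gene interval and had 63.3% and 72.9% in AOM/DSS plus curcumin, 45.3% and 39.2% in AOM/DSS, and 70.0% and 76.0% in control. Both AOM/DSS libraries lay below all others, and the curcumin libraries overlapped with control. AOM/DSS minus control was -30.7 points, in place 68 from the lowest among all 179922 regions, on 50 to 75 calls per library. The last member, from 21939976 to 21940122 with 3 CpGs, had 89.4% and 55.4% in AOM/DSS plus curcumin, 59.5% and 53.9% in AOM/DSS, and 74.5% and 63.7% in control. AOM/DSS minus control was -12.4 points there, and the curcumin libraries stood far apart, 1 above all others and 1 between the AOM/DSS libraries.

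Upstream of the gene, 1 member was higher in AOM/DSS. The region from 21848654 to 21848784, with 3 CpGs and 26 to 55 calls, had 40% and 42.3% in AOM/DSS plus curcumin, 56.4% and 62.9% in AOM/DSS, and 43.2% and 55.6% in control. It was the only member at least 10 points higher in AOM/DSS than in control without overlap, by 10.2 points. The region from 21850620 to 21850725 stood between 91.4% and 100% in all libraries. The first member, from 21848340 to 21848386 with 3 CpGs, had 0 methylated calls with curcumin and in control, on 20 to 37 calls that allow levels of up to 8.11% to 15.0%, and 3.23% in AOM/DSS replicate 0, the sole AOM/DSS library with a value.

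The regions on either side of the window lay 2524 bases before it and 29099 bases after it. The last region before it, from 21842288 to 21842476, averaged 66.6% ± 1.84 with curcumin, 60.9% ± 3.57 in AOM/DSS alone and 63.3% ± 5.27 in control (SD, n = 2 each). The first region after it, from 21969099 to 21969241, averaged 74.0% ± 2.50 with curcumin, 66.5% ± 7.75 in AOM/DSS alone and 76.0% ± 7.44 in control. AOM/DSS minus control was -2.49 points at the region before the window and -9.54 points at the region after it. The libraries of AOM/DSS and control overlapped at both.

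By count, 5 of the 24 members with 6 values were at least 10 points lower in AOM/DSS than in control without overlap, against 5.08% of all tested regions, and 1 was higher, against 1.98%. Over the whole table, 0.00389% of regions were called by edgeR's test in this contrast (adjusted p under 0.05, 10 points or more). The core region is 1 of them, which the choice of the locus fixes. Since this contrast chose the locus, nothing is read from these counts. The median difference of the 24 members was -3.43 points, beside -0.264 points over all tested regions.

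Curcumin against AOM/DSS asks how the locus stood in AOM/DSS mice that received curcumin. It shares the AOM/DSS libraries with the contrast that chose the locus, so it is not independent of the choice. At the core region curcumin minus AOM/DSS was 38.3 points, in place 3 from the highest of all regions, and it missed the threshold in edgeR's quasi-likelihood test (adjusted p = 0.0579, higher in 2 of 2 libraries). Whether the difference passed depended on the setting. It did not pass with at least 50 calls per library (edgeR adjusted p = 0.106) or with a quasi-binomial model (adjusted p = 0.0522). It passed with only the 4 libraries compared (edgeR adjusted p = 0.0273). It also passed with a replicate block, a term for the replicate number that no label gives a basis for (edgeR adjusted p = 0.00596). Without single libraries the difference ran from 34.8 to 41.8 points. This range speaks of size only and not of passing, since each such run leaves a group with a single library. The region after the core stood 17.8 points higher with curcumin (edgeR adjusted p = 0.857), and the region past the gene end 25.8 points higher (edgeR adjusted p = 0.928). At the region before the core, curcumin minus AOM/DSS was 1.71 points (edgeR adjusted p = 1), and its sign turned without 1 library, to -3.13 points without curcumin replicate 0 and -0.729 points without AOM/DSS replicate 0.

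Of the 24 members, 0 were called in edgeR between curcumin and AOM/DSS, as were 0 of all regions, while 4 members, against 5.25% of all regions, had an unadjusted p under 0.05. A quasi-binomial model gave no call either. By size, 3 members were at least 10 points higher with curcumin without overlap, against 3.86% of all regions, namely the core region, the region after it and the region from 21938068. One upstream region, from 21848654, was 18.5 points lower with curcumin without overlap, against 2.17% of all regions. Over the 17 gene-body regions curcumin minus AOM/DSS was 4.26 points, and 2.13 points without the core region.

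Curcumin against control asks whether the locus in curcumin-treated AOM/DSS mice differed from that of untreated mice; the 2 groups share no library, but the controls took part in the choice of the locus. Curcumin minus control was -8.81 points at the core region and the groups did not overlap, yet it did not pass in edgeR's test (adjusted p = 1, unadjusted p = 0.0499), and without single libraries the difference ran from -10.6 to -6.98 points. Among the members the region before the core differed most, at -16.0 points (edgeR adjusted p = 1, unadjusted p = 0.00743), and it was the only member at least 10 points lower with curcumin than in control without overlap, against 3.01% of all regions. The region from 21867099 to 21867312, with 13 CpGs, differed by -9.94 points, with 88.7% and 84.0% with curcumin against 95.4% and 97.1% in control (edgeR adjusted p = 1, unadjusted p = 0.00858). No member was at least 10 points higher than in control without overlap, against 1.94% of all regions. In edgeR's test 0 of the 24 members and 0 of all regions were called, while 3 members, against 4.17% of all regions, had an unadjusted p under 0.05. A quasi-binomial model gave no call either.

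Over the 17 gene-body regions curcumin minus control was -2.33 points, with no overlap between the groups and a two-sided p of 0.333 in the exact permutation test, the smallest it can give here. Over the 14 gene-body regions outside the stretch it was -0.648 points, and the groups overlapped (exact permutation p = 0.667).

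Over the whole table, 5 of the 179922 regions were at least 40 points lower in AOM/DSS than in control without overlap. Among these the core region had the most CpGs and, in its shallowest library, the most calls. Both it and a region on chromosome 17, from 35338139 to 35338267, had 2 neighbours within 1000 bases that were also at least 10 points lower. These were all tested neighbours that close for the core region, and 2 of 3 for the region on chromosome 17. The region on chromosome 7 had 2 neighbours that close, of which 1 was also lower. The regions on chromosomes 3 and 4 had 0 tested neighbours that close and could not show this. By Euclidean distance over the 6 library levels, the closest region outside the locus was on chromosome 14, from 32483017 to 32483176 with 5 CpGs, at a distance of 11.3 points. It averaged 74.5% ± 1.76 with curcumin, 44.0% ± 6.74 in AOM/DSS alone and 81.3% ± 3.70 in control (SD, n = 2 each). The next 4 lay at distances of 19.6 to 22.3 points, on chromosome 10 from 93371714, chromosome 12 from 36943573, chromosome 2 from 147948730 and chromosome 3 from 95116751. The last 2 of them had only 23 to 49 calls per library, against 225 to 318 at the core region.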

How the data were processed

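Per the labels' protocols, DNA was enriched with Agilent's SureSelectXT Mouse Methyl-Seq capture and bisulfite sequenced. Bismark 0.15.0, ChIPseeker 1.10.3 and R 3.4.0 appear, with build mm9, in the submitters' processing notes. No source used here says how regions were drawn or whether duplicates were removed. The deposited files hold counts per region, namely the number of CpGs, all methylation calls and the methylated calls, with no value under 20 calls.

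A region was tested when all 6 libraries had 10 or more calls. edgeR 4.0.16 and limma 3.58.1 in R 4.3.3 were used. The quasi-likelihood test was fitted on methylated and unmethylated counts of 179922 regions, with a coverage coefficient per library and a methylation coefficient per group, with Benjamini-Hochberg adjustment over the whole table. The fits were also run on simulated data, in which levels were only raised at the changed regions. That run did not set a fall like that of the core region, and no result here rests on it. Levels were averaged in Python 3.11.15. The members, regions and tests were chosen with earlier results of these data known. Values per library are given for the core region, its 3 nearest neighbours on each side, regions within 1000 bases of the gene start, other members at least 10 points apart without overlap, and the first and last member; further regions named were chosen after their values were seen, except that the 5 closest outside regions were taken by a fixed distance rule. A planned count of hyaluronan genes was not made, since no mm9 annotation was used.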

Additional observations from a re-analysis of the deposited data

How the results depend on the processing

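At the core region the differences kept their sign under every alternative run. Leaving out single libraries, AOM/DSS minus control ran from -50.6 to -43.6 points, curcumin minus AOM/DSS from 34.8 to 41.8 points and curcumin minus control from -10.6 to -6.98 points. Curcumin minus AOM/DSS, 38.3 points, shares the AOM/DSS libraries that took part in choosing the core region. Its p-values are therefore not independent of that choice. The difference passed with only the 4 libraries compared (edgeR adjusted p = 0.0273) and with a replicate block (edgeR adjusted p = 0.00596). It did not pass with at least 50 calls (edgeR adjusted p = 0.106) or with the quasi-binomial model (adjusted p = 0.0522). Curcumin minus control passed in none of the alternatives. The count of members at least 10 points lower in AOM/DSS than in control without overlap was 5 in the main run. It was 4 with at least 50 calls, where 18 members remained. Without single libraries the count moved both up and down. A group left with a single library overlaps less easily with another. The share of all regions was not counted in these alternatives, so nothing is read from the changes in this count.

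The number of regions called between AOM/DSS and control, 7, was 1 with at least 50 calls, 1 with the quasi-binomial model, 1 with only the 4 libraries compared and 41 with a replicate block, and from 1 to 8 without single libraries (1 without AOM/DSS replicate 1 or either curcumin library, 2 without control replicate 1, 3 without AOM/DSS replicate 0). Between curcumin and AOM/DSS it was 1 with a replicate block, 1 with only the 4 libraries compared and 0 to 1 without single libraries (1 without either control library), and between curcumin and control 0 to 1 (1 without control replicate 0). The cause was not tested.

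The gene-body difference between AOM/DSS and control was -8.27 points with at least 50 calls (12 regions), -8.04 points weighted by CpGs, -4.06 points without the core region and -7.86 to -5.33 points without single libraries. Under the same settings, curcumin minus AOM/DSS was 4.96, 5.07, 2.13 and 4.01 to 4.52 points, and between curcumin and control -3.59 to -1.06 points without single libraries. Over the 3 regions near the gene start, without single libraries, the difference was -3.12 to -1.64 points for AOM/DSS and -3.03 to -1.55 points for curcumin, each against control. With all libraries, the region upstream of the start differed by -8.38 points for AOM/DSS and -6.79 points for curcumin. The mean of the 2 regions past the start differed by 0.622 and -0.0401 points.

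No label used here says that replicate numbers pair the libraries, so the replicate block has no stated basis in the design. Differences between replicates 0 and 1 correlated across regions at only 0.00755 to 0.0548 between groups. Such correlations cannot settle whether libraries were paired. With 2 libraries a group, members on 20 to 60 calls can show only large differences.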

Other observations

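The 5 members that were lower in AOM/DSS by at least 10 points without overlap were sparse in CpGs, at 2.05 to 3.42 CpGs per 100 bases. Another 8 members were as sparse, and their differences between AOM/DSS and control ran from -4.62 to 10.2 points. The 11 denser members, at 3.88 to 7.98 CpGs per 100 bases, differed by -8.38 to 5.93 points. These classes were made after the values were seen, and no test was run on them.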
